A study of Danio rerio with 27 samples.

Results

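The genes described here build ribosomes. They were chosen by name, with earlier results of these data known, from a table of transcript abundance in whole zebrafish larvae. Shares of all identifiers set beside their counts are therefore descriptive. The 60 symbols encode RNA polymerase I subunits, multifunctional nucleolar proteins, small nucleolar ribonucleoprotein (snoRNP) proteins and assembly factors of the small and large ribosomal subunits. All 60 symbols were found, under 66 of the 24101 gene identifiers in the table. The symbols gar1, nol6, npm1a, polr1b, rrp9 and utp6 each have 2 identifiers, between which reads could have been split, so the separate values of these 12 identifiers are uncertain.

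The larvae were of the AB strain, without any genetic change named in the labels, and were raised at 28 °C to 96 h post fertilization (hpf). They were then kept for 12 h at 28 °C or at 10 °C, a lethal cold for longer exposures, in medium with an inhibitor or with its vehicle, 0.1% DMSO. The inhibitor groups were 10C_AS and 28C_AS (0.5 μM AS1842856, which blocks the transcription factor Foxo1), 10C_PD and 28C_PD (5 μM PD0325901, which blocks the kinase MEK upstream of ERK), and 10C_SB and 28C_SB (50 μM SB203580, which blocks p38 MAPK). Their vehicle groups were 10C_DMSO and 28C_DMSO, and untreated larvae taken at the start formed the group 96hpf. Each of the 9 groups had 3 libraries, made from larvae still alive at collection, so larvae that died in treatment are not represented.

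Ribosomes are assembled mainly in the nucleolus. There RNA polymerase I transcribes a long precursor of ribosomal RNA (rRNA), snoRNPs modify its bases and sugars, and a large particle called the small subunit processome folds and cuts the part that becomes the small subunit while other factors mature the large subunit. Most of these roles were worked out in yeast and in human cells, and cells that grow or divide quickly are known to use more of these factors.

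Abundance was given as TPM, a relative measure of transcript number that corrects for transcript length and for the total of a library. Each value was divided by a size factor of its library (0.94 to 1.11) and is called scaled TPM below. TPM carry no read depth, since the listed values of a library summed to between 996255 and 997428 whatever was sequenced. The lowest correlation between libraries of a group was 0.966, between replicates 1 and 3 of 10C_DMSO, against 0.970 to 0.977 in the other groups. Changes are differences of log2(scaled TPM + 1) with their standard errors (SE) from limma, fitted on all 24101 identifiers and all 27 libraries, with p-values adjusted by Benjamini-Hochberg over all identifiers. A gene is said to have risen or fallen, or to be called, where its adjusted p did not exceed 0.05 and its groups differed by at least 1.5-fold (0.585 on the log2 scale). An exact permutation test of 3 libraries against 3 cannot give a p below 0.1, so no such test was used. Nothing in the labels says whether replicates came from separate clutches, and the p-values measure the spread between these libraries.

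The summed level of the 66 identifiers separated 28C_AS from the rest of the series. It was 3218, 3189 and 3063 scaled TPM in the 28C_AS libraries, against 1433, 1485 and 1443 in 28C_DMSO, a ratio of the means of 2.17. In the cold, the sums were 2152, 2154 and 2160 in 10C_AS, against 1942, 1835 and 1985 in 10C_DMSO, a ratio of 1.12. The 28C_AS libraries were thus the highest of all 27 and did not come near any other group, while in the cold each AS1842856 library lay above each vehicle library, by less. These are whole larvae, so a change in the number of cells of a type and a change in RNA per cell cannot be told apart.

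The other groups fell in a narrower band. The means were 1895 ± 67.2 in 10C_PD, 1893 ± 35.9 in 10C_SB and 1921 ± 76.9 in 10C_DMSO (SD, n = 3 each), so these neighbours in the order did not differ beyond their spread. At 28 °C they were 1500 ± 17.8 in 28C_PD, 1357 ± 22.9 in 28C_SB and 1454 ± 27.4 in 28C_DMSO, and the untreated 96hpf larvae had 1690 ± 53. One gene, npm1a, contributed much of the sum, but without its 2 identifiers the 28C_AS libraries still held 2455 to 2554 scaled TPM, against 1286 to 1310 in 28C_DMSO. In the cold the sums without npm1a were 1746 to 1776 in 10C_AS, against 1549 to 1649 in 10C_DMSO. There nop56 alone had a mean of 232 in 10C_AS, against 160 in 10C_DMSO, while the median log2 change of the 66 identifiers was 0.03.

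**Figure D1:**
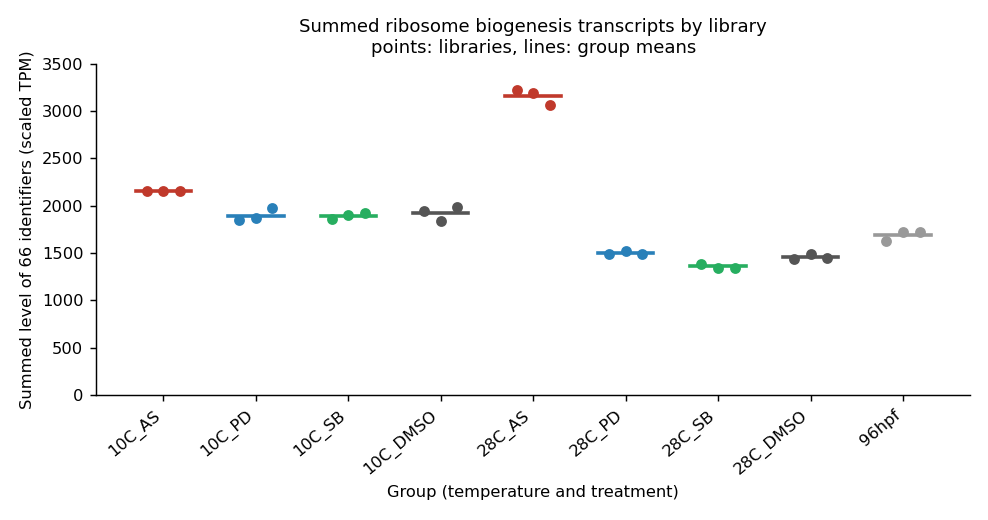
Summed scaled TPM of the 66 identifiers (vertical axis) in each of the 27 libraries (points) by group (horizontal axis), with lines for group means. The 3 libraries of 28C_AS sit between 3063 and 3218, above all other libraries, and those of 28C_DMSO between 1433 and 1485.

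AS1842856 at 28 °C was the condition in which these genes moved as a body. Of the 66 identifiers, 54 rose in 28C_AS relative to 28C_DMSO, where 6.39% of all identifiers in the table rose, and 0 fell, where 5.81% of all fell (limma, with 65 members at an unadjusted p under 0.05, all of them higher). Without the fold threshold, 64 were higher, against 17.6% of all identifiers. The median change was 0.91 on the log2 scale, with the middle of the distribution between 0.73 and 1.17 and the whole range from 0.37 to 2.17, beside a median of -0.009 over all identifiers. The ratio of the group means, taken on scaled TPM, ran from 1.29 to 4.53 with a median of 1.93, and it reached 2 for 29 identifiers.

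The separation was also visible library by library. For 64 of the 66 identifiers the 3 libraries of 28C_AS all lay above the 3 of 28C_DMSO, which held for 22.8% of all identifiers. For 53 of them the 3 libraries of 28C_AS were the highest of all 27, against 8.70% of all identifiers. The 13 for which they were not include nop56 and rrs1, which were also high in 10C_AS, and an identifier of each of gar1, nol6, polr1b and utp6, whose reads could be split. The rest were ebna1bp2, emg1, imp3, nhp2, nob1, utp18 and wdr75. Of these, nob1 and ebna1bp2 had higher means in 10C_PD (19.0 and 46.7 scaled TPM) than in 28C_AS (17.6 and 46.3).

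Neither abundant nor rare members made up the change alone. In 28C_AS the mean levels of the 66 identifiers ran from 3.44 to 536 scaled TPM with a median of 24.5, against 1.58 to 166 with a median of 11.8 in 28C_DMSO. Across the 66 identifiers the level in 28C_DMSO and the change in 28C_AS were all but unrelated (Spearman 0.04, Pearson 0.09, a description across genes that share the same 6 libraries).

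**Figure D2:**
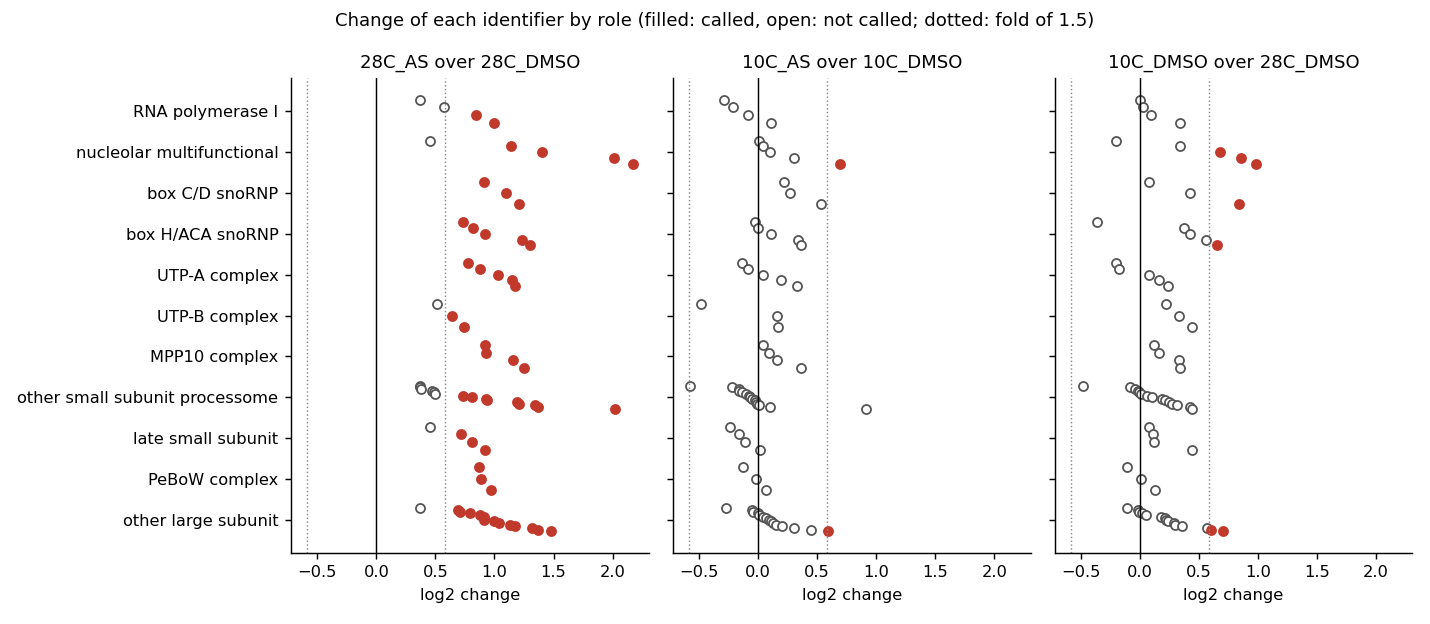
Change of each of the 66 identifiers (log2 of scaled TPM + 1, horizontal axis) by role (vertical axis) in 28C_AS over 28C_DMSO, 10C_AS over 10C_DMSO and 10C_DMSO over 28C_DMSO. Filled points were called and dotted lines mark a fold of 1.5. In 28C_AS 54 points are filled and all 66 are right of 0, against 2 filled in 10C_AS and 7 in the cold.

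RNA polymerase I makes the rRNA precursor, and 2 of its 4 identifiers rose under AS1842856 at 28 °C. Transcripts of polr1c, a subunit shared with RNA polymerase III, had 16.4, 17.6 and 20 scaled TPM in 28C_AS, against 8.52, 8.61 and 8.35 in 28C_DMSO (log2 change 1.00, SE 0.124, adjusted p 1.89e-06). The largest catalytic subunit, polr1a, had 12.2, 13.4 and 12.9 in 28C_AS, against 7.50, 6.17 and 6.54 in 28C_DMSO (0.84, adjusted p 9.03e-09). In both genes the groups did not overlap. The second-largest subunit, polr1b, missed the fold with both identifiers (0.57 and 0.37, adjusted p 0.00257 and 0.036), and also when they were summed (0.56, adjusted p 5.41e-06). At its low level the log2 scale with a pseudocount of 1 understates the fold. The sums were 7.19, 6.96 and 7.02 scaled TPM in 28C_AS, against 4.46, 4.57 and 4.41 in 28C_DMSO, without overlap.

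The multifunctional nucleolar proteins held the largest changes, with 4 of 5 identifiers called and a median of 1.40. Nucleophosmin, encoded by npm1a, is an abundant histone and assembly chaperone of the nucleolus. Its more abundant identifier, ENSDARG00000014329, had 543, 592 and 473 scaled TPM in 28C_AS, against 128, 141 and 126 in 28C_DMSO (2.01, SE 0.0844, adjusted p 2.82e-13). The other, ENSDARG00000113199, had 120, 113 and 135 in 28C_AS, against 19.1, 33.5 and 28.7 in 28C_DMSO (2.17, SE 0.184, adjusted p 7.65e-09). Both identifiers moved together, and their sum was 664, 705 and 608 in 28C_AS, against 147, 174 and 155 in 28C_DMSO (2.05, adjusted p 1.36e-13).

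Nucleolin, encoded by ncl, binds nascent rRNA and was the next most abundant. It had 368, 353 and 381 scaled TPM in 28C_AS, against 154, 168 and 176 in 28C_DMSO (1.14, adjusted p 3.51e-12). The nucleolar transcription co-regulator mybbp1a, known in mammals as Myb-binding protein 1A, had 28.1, 25.8 and 26.6 in 28C_AS, against 8.93, 10.5 and 9.21 in 28C_DMSO (1.40, SE 0.0917, adjusted p 1.58e-10). The exception in this role was the RNA helicase ddx21, with 207, 207 and 195 in 28C_AS, against 145, 146 and 154 in 28C_DMSO. Its groups did not overlap, but its change of 0.45 was under the fold (adjusted p 4.18e-05).

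**Figure D3:**
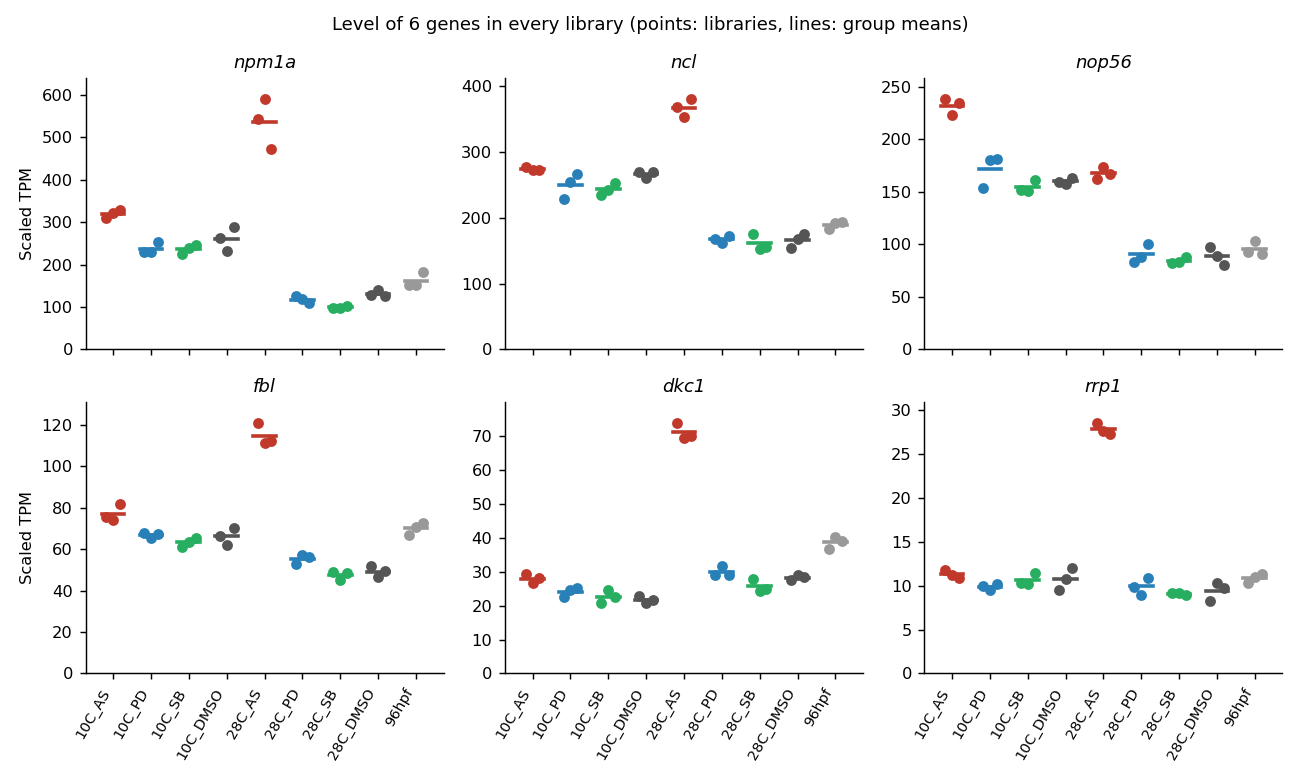
Scaled TPM (vertical axes) in each library (points) by group (horizontal axes) for npm1a (its identifier ENSDARG00000014329), ncl, nop56, fbl, dkc1 and rrp1, with lines for group means. In npm1a, ncl, fbl, dkc1 and rrp1 the 28C_AS libraries are the highest of all, while nop56 is highest in 10C_AS at 223 to 239.

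SnoRNPs guide the chemical modification of rRNA, and all 8 identifiers of the core proteins among the members rose. In the box C/D class, which methylates sugars, the methyltransferase fbl (fibrillarin) had 121, 111 and 112 scaled TPM in 28C_AS, against 51.6, 46.3 and 49.2 in 28C_DMSO (1.21, SE 0.0554, adjusted p 1.19e-12). Its scaffold partners nop58 (1.1, adjusted p 4.32e-09) and nop56 (0.91, adjusted p 3.45e-09) rose less. For nop56 the values were 162, 174 and 167 in 28C_AS, against 97.4, 89.0 and 80.7 in 28C_DMSO. The 3 members of this class thus had changes of 0.91 to 1.21.

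The box H/ACA class converts uridine to pseudouridine. Its enzyme dkc1 (dyskerin) had 73.9, 69.5 and 69.9 scaled TPM in 28C_AS, against 27.4, 29.0 and 28.3 in 28C_DMSO (1.3, SE 0.0651, adjusted p 3.71e-12). The core protein gar1 had, under ENSDARG00000076526, 36.8, 33.9 and 34.2 in 28C_AS, against 12.2, 15.1 and 16.2 in 28C_DMSO (1.23, SE 0.129, adjusted p 1.92e-07), and the sum of its 2 identifiers changed by 1.09. The other core proteins, nhp2 (0.82, adjusted p 1.28e-05) and nop10 (0.73, adjusted p 2.52e-09), were the least changed of this class, and the groups did not overlap in either.

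The small subunit processome is built from modules named in yeast, and the response ran through all of them. All 5 UTP-A genes, whose module is loaded first on the precursor, rose, with changes of 0.78 to 1.17. Of them utp4 had 25.8, 26.9 and 27 scaled TPM in 28C_AS, against 10.4, 11.4 and 11.9 in 28C_DMSO (1.17, SE 0.089, adjusted p 1.47e-09). It was followed by wdr43 (1.15), heatr1 (1.03), utp15 (0.88) and wdr75 (0.78), and wdr75 had the widest spread among libraries, with an adjusted p of 0.0104. The MPP10 module was called at all 4 identifiers (0.92 to 1.25). Its utp3 had 25.9, 25.9 and 23.9 in 28C_AS, against 8.09, 13.2 and 9.36 in 28C_DMSO (1.25, SE 0.225, adjusted p 0.000162), followed by imp4 (1.16), mphosph10 (0.93) and imp3 (0.92).

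UTP-B was represented among the members only by utp6 and utp18, with 3 identifiers, of which 2 rose. Their median of 0.64 was the smallest among the modules as listed here. It describes these genes only and does not rank the whole module. Under ENSDARG00000098433, utp6 had 7.74, 5.30 and 6.25 scaled TPM in 28C_AS, against 2.61, 3.97 and 3.79 in 28C_DMSO (0.74, SE 0.194, adjusted p 0.00513). Its other identifier, at 0.64, was the called member nearest to the fold. The third, utp18, had 24.8, 21.8 and 19.2 in 28C_AS, against 15.3, 18.5 and 11.8 in 28C_DMSO, and although the groups did not overlap, its change of 0.51 did not pass the test (adjusted p 0.115).

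Among the 15 other identifiers of the processome, 9 rose, with a median over the 15 of 0.81. The acetyltransferase nat10, which in human cells acetylates small subunit rRNA, had 27.4, 27.3 and 21.6 scaled TPM in 28C_AS, against 7.98, 9.45 and 10.1 in 28C_DMSO (1.37, SE 0.157, adjusted p 5.94e-07). For rrp9, which binds the guide RNA at the core of the processome, ENSDARG00000112140 had 4.29, 5.36 and 7.20 in 28C_AS, against 1.99, 1.58 and 1.18 in 28C_DMSO (1.34, SE 0.248, adjusted p 0.000212). Its more abundant identifier changed by 1.21 and the sum of both by 1.35 (adjusted p 6.4e-09), so the rise did not hang on how reads were divided. The remaining called genes were noc4l (1.19), utp20 (0.94), nop14 (0.93), the GTPase bms1 (0.81) and the helicase ddx10 (0.73), together with an identifier of nol6.

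The nol6 gene needs both identifiers to be read together. ENSDARG00000115621 had 12.4, 10.3 and 8.86 scaled TPM in 28C_AS and was listed at 0, 3.28 and 4.23 in 28C_DMSO (2.02, SE 0.58, adjusted p 0.00971), and ENSDARG00000059711 had 4.67, 6.03 and 6.84 in 28C_AS, against 7.04, 3.92 and 2.65 in 28C_DMSO (0.37, adjusted p 0.339). The first was listed at 0 in 3 libraries, replicate 1 of 28C_DMSO, 28C_SB and 10C_DMSO, and in those libraries the second stood at 7.04, 7.16 and 7.55. Without 28C_DMSO replicate 1 the change of the first was 1.27 and no longer passed (adjusted p 0.0901). Summed, the gene had 17.0, 16.3 and 15.7 in 28C_AS, against 7.04, 7.19 and 6.89 in 28C_DMSO, a rise of 1.11 (SE 0.0725, adjusted p 1.56e-10) with a small spread in both groups.

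Late small subunit factors act at the end of maturation, and 3 of 4 rose. For rrp12, an export factor in yeast, the values were 62.8, 63.4 and 57.0 scaled TPM in 28C_AS, against 32.6, 33.9 and 29.2 in 28C_DMSO (0.92, SE 0.112, adjusted p 1.4e-06). The factors ltv1 (0.81) and tsr1 (0.72) rose as well. The exception was nob1, the endonuclease that in yeast and human cells makes the final cut of small subunit rRNA, with 18.9, 16.2 and 17.7 in 28C_AS, against 13.2, 12.4 and 12.2 in 28C_DMSO (0.45, adjusted p 0.000431), a separation under the fold.

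Of the large subunit factors, 17 of 18 identifiers rose, counting the PeBoW complex and the 15 others. PeBoW, named for its mammalian members Pes1, Bop1 and WDR12, is needed to process large subunit rRNA. In zebrafish larvae bop1 had 14.2, 13.3 and 13.5 scaled TPM in 28C_AS, against 6.63, 6.41 and 6.49 in 28C_DMSO (0.97, SE 0.0725, adjusted p 1.3e-09). Its partners pes (0.89) and wdr12 (0.87) moved by nearly the same amount, although pes was spread more widely, at 34.4, 45.6 and 30.9 in 28C_AS, against 25.4, 18.0 and 15.6 in 28C_DMSO.

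The largest change in the other large subunit factors was that of rrp1, named for rRNA processing in yeast. It had 28.6, 27.6 and 27.3 scaled TPM in 28C_AS, against 8.22, 10.3 and 9.73 in 28C_DMSO (1.48, SE 0.0787, adjusted p 9.66e-12). The nucleolar GTPase gnl3 (nucleostemin), known from stem and dividing cells in mammals, had 64.9, 63.3 and 60.9 in 28C_AS, against 22.1, 27.3 and 22.4 in 28C_DMSO (1.37, SE 0.0815, adjusted p 4.32e-11). For rrs1, which in yeast brings the small RNA of the large subunit into the particle, the values were 23.4, 19.1 and 20.5 in 28C_AS, against 6.70, 8.96 and 7.89 in 28C_DMSO (1.32, SE 0.107, adjusted p 4.17e-09). In these genes the lowest 28C_AS library was far above the highest 28C_DMSO library.

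The rest of this role followed at smaller sizes. The methyltransferases nop2 (1.17) and ftsj3 (1.13), the helicases ddx18 (1.04), ddx27 (0.91) and ddx56 (0.71), and the factors noc2l (1.00), nip7 (0.91), nop16 (0.91), gnl2 (0.88), noc3l (0.79) and ebna1bp2 (0.69) all rose. The kinase nol9 was the one member of the role that did not (0.37, adjusted p 0.00479).

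The 12 identifiers that were not called at 28 °C all had positive changes, from 0.37 to 0.57. Besides polr1b, ddx21, utp18, nob1, nol9 and the second identifier of nol6, they were ddx47 (0.50), nol10 (0.49), emg1 (0.47), wdr46 (0.38) and rcl1 (0.37), members of the processome. Of the 12, utp18 and that nol6 identifier missed the adjusted p, and the others missed only the fold. With the identifiers of a symbol summed, a step chosen after seeing the data, 50 of 60 genes rose. Leaving out any library of the comparison kept the count between 53 and 55.

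In the cold, the same inhibitor at the same dose moved few of these genes. In 10C_AS relative to 10C_DMSO, 2 identifiers rose, where 0.407% of all identifiers rose, and 0 fell, where 0.519% of all fell (limma, 18 members at an unadjusted p under 0.05). The median change was 0.03, with a range of -0.58 to 0.91, and 37 of the 66 changes were positive. Both ends of that range are identifiers of nol6, whose reads could be split and whose sum changed by -0.06 (limma, adjusted p 0.688). At the adjusted p without the fold, 8 identifiers were higher, against 1.90% of all.

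The called pair were rrs1 and the less abundant npm1a identifier. Transcripts of rrs1 had 19.3, 18.7 and 19.5 scaled TPM in 10C_AS, against 11.7, 12.6 and 12.9 in 10C_DMSO (0.59, SE 0.107, adjusted p 0.00378), a clean separation just past the fold. Under ENSDARG00000113199, npm1a had 67.8, 84.1 and 86.7 in 10C_AS, against 44.3, 54.4 and 47.8 in 10C_DMSO (0.69, SE 0.184, adjusted p 0.0403). Both calls depended on single libraries. Without 10C_DMSO replicate 1, or without 10C_AS replicate 3, 0 members were called. Without 10C_DMSO replicate 3, or without 10C_AS replicate 2, 1 was, because npm1a then had an adjusted p of 0.0794 or 0.124. Summed over both identifiers npm1a changed by 0.37 (adjusted p 0.0163), under the fold.

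The other 6 genes past the adjusted p were nop56, ddx56, dkc1, wdr43, gnl3 and fbl. For nop56 the values were 239, 223 and 235 scaled TPM in 10C_AS, against 159, 158 and 163 in 10C_DMSO (0.53, SE 0.0729, adjusted p 0.000282), the highest level of this gene in the series. For ddx56 they were 10.5, 14.1 and 12.4 in 10C_AS, against 9.04, 8.45 and 8.55 in 10C_DMSO (0.45, adjusted p 0.0281). In both genes the groups did not overlap. The changes of the rest were 0.34 for dkc1, 0.33 for wdr43, 0.30 for gnl3 and 0.22 for fbl. By role, the medians in 10C_AS lay between -0.15 for RNA polymerase I and 0.27 for the box C/D snoRNP, against 0.64 to 1.40 in 28C_AS.

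The order of the members was partly kept between temperatures. Across the 66 identifiers the change in 28C_AS and the change in 10C_AS, which share no libraries, had a Spearman correlation of 0.49 and a Pearson correlation of 0.62. This is a description across genes, which are not independent and include pairs of identifiers of a symbol. The nol6 pair holds both ends of the change in 10C_AS (0.91 and -0.58). Its ENSDARG00000115621 was listed at 0 in replicate 1 of both vehicle groups, so those zeros enter both changes. No correlation with summed identifiers is given.

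The difference between the temperatures was tested directly, as the AS1842856 change at 10 °C minus that at 28 °C. It was negative for all 66 identifiers, with a median of -0.89 and a range of -1.72 to -0.26, and 48 were called, where 5.39% of all identifiers were called lower. It was called in 12 of 15 other large subunit identifiers, 9 of 15 of the remaining processome, 4 of 4 of RNA polymerase I and 4 of 5 of the multifunctional nucleolar, UTP-A and box H/ACA roles each. The count was between 44 and 52 when a library was left out, and 46 of 60 genes when identifiers were summed.

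The 5 largest differences were in npm1a (-1.72 and -1.48 for its identifiers), nat10 (-1.60), rrp1 (-1.41) and ftsj3 (-1.41). In the cold, nat10 had 8.05, 7.88 and 8.13 scaled TPM in 10C_AS, against 13.7, 7.57 and 8.30 in 10C_DMSO, whose replicate 1 stands above the rest. Without that library the difference of nat10 was -1.36. For rrp1 the cold values were 11.8, 11.2 and 10.9 in 10C_AS, against 9.56, 10.8 and 12.0 in 10C_DMSO, and the groups overlapped. For ftsj3, a methyltransferase of large subunit rRNA, they were 8.04, 7.45 and 7.92 in 10C_AS, against 9.02, 9.22 and 10.8 in 10C_DMSO, so that 10C_AS was lower in every library, with a change of -0.27 that did not pass the test (adjusted p 0.0735). At 28 °C the same gene had 15.0, 14.9 and 14.4 in 28C_AS, against 6.52, 5.83 and 6.26 in 28C_DMSO. The smallest differences were those of ddx56 (-0.26, adjusted p 0.268), ddx21 (-0.35, adjusted p 0.0151) and nop56 (-0.37, adjusted p 0.0121).

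Few members were called in the cold in vehicle. In 10C_DMSO relative to 28C_DMSO, 7 identifiers rose, where 8.73% of all identifiers rose, and 0 fell, where 7.06% of all fell (limma, 34 members at an unadjusted p under 0.05). A share of 10.6% of the members is near that background. Without the fold threshold 23 were higher and 3 lower, against 21.0% and 18.9% of all identifiers. The median change was 0.20, with a range of -0.48 to 0.98, and 52 of the 66 were positive. This comparison and that of 28C_AS share the 28C_DMSO libraries, so a low value there would raise both.

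The 7 were both identifiers of npm1a, an identifier of gar1, and ncl, nop56, gnl3 and rrs1. Their roles did not move as a whole. Cold changes ran down to -0.2 in the multifunctional nucleolar proteins (ddx21), 0.08 in the box C/D class and -0.36 in the box H/ACA class (dkc1). Under ENSDARG00000014329, npm1a had 262, 232 and 288 scaled TPM in 10C_DMSO, against 128, 141 and 126 in 28C_DMSO (0.98, SE 0.0844, adjusted p 7.01e-09), and its other identifier had 44.3, 54.4 and 47.8 in 10C_DMSO, against 19.1, 33.5 and 28.7 in 28C_DMSO (0.86, adjusted p 0.000802). Nucleolin transcripts (ncl) stood at 269, 261 and 270 in 10C_DMSO, against 154, 168 and 176 in 28C_DMSO (0.68, SE 0.0568, adjusted p 4.07e-09). In the snoRNPs, nop56 had 159, 158 and 163 in 10C_DMSO, against 97.4, 89.0 and 80.7 in 28C_DMSO (0.84, SE 0.0729, adjusted p 7.11e-09). The groups did not overlap in any of these genes, and the levels in 10C_DMSO stayed under those in 28C_AS for npm1a and ncl.

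The remaining calls were those of gnl3, gar1 and rrs1. The GTPase gnl3 had 37.2, 39.4 and 41.6 scaled TPM in 10C_DMSO, against 22.1, 27.3 and 22.4 in 28C_DMSO (0.70, adjusted p 5.79e-07). Under ENSDARG00000076526, gar1 had 19.0, 23.2 and 27.9 in 10C_DMSO, against 12.2, 15.1 and 16.2 in 28C_DMSO (0.65, adjusted p 0.000398), and summed with its other identifier it changed by 0.51, under the fold. For rrs1 the values were 11.7, 12.6 and 12.9 in 10C_DMSO, against 6.70, 8.96 and 7.89 in 28C_DMSO (0.60, adjusted p 0.000119). The untreated 96hpf larvae had means of 22.5 for this gar1 identifier and 12 for rrs1, near the 23.4 and 12.4 of 10C_DMSO. The means in 28C_DMSO, 14.5 and 7.85, were below that start. For gnl3 the mean was 34.7 in 96hpf, against 39.4 in 10C_DMSO and 23.9 in 28C_DMSO. The calls of gar1 and rrs1 were lost without 28C_DMSO replicate 1 (0.54 and 0.51) or without 10C_DMSO replicate 3 (0.52 and 0.58). With identifiers summed, 5 of 60 genes rose. Without 10C_DMSO replicate 3 the count was 5, without 10C_DMSO replicate 1 it was 8 with 1 member called lower, and without 10C_DMSO replicate 2 it was 9.

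A few members went the other way in the cold without reaching the fold. The helicase ddx47 had 27.5, 14.1 and 21.5 scaled TPM in 10C_DMSO, against 27.5, 30.6 and 28.4 in 28C_DMSO (-0.48, adjusted p 0.0191), with 10C_DMSO replicate 1 at the level of the warm libraries. Dyskerin (dkc1) had 22.9, 20.7 and 21.7 in 10C_DMSO, against 27.4, 29.0 and 28.3 in 28C_DMSO (-0.36, adjusted p 0.00015), and ddx21 changed by -0.20 (adjusted p 0.0305). Thus dkc1 and ncl, both at least 1.14 higher in 28C_AS, had cold changes of opposite sign. By role, the median cold change was 0.68 in the multifunctional nucleolar proteins and 0.42 in each snoRNP class, against 0.01 to 0.33 in the other roles.

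**Figure D4:**
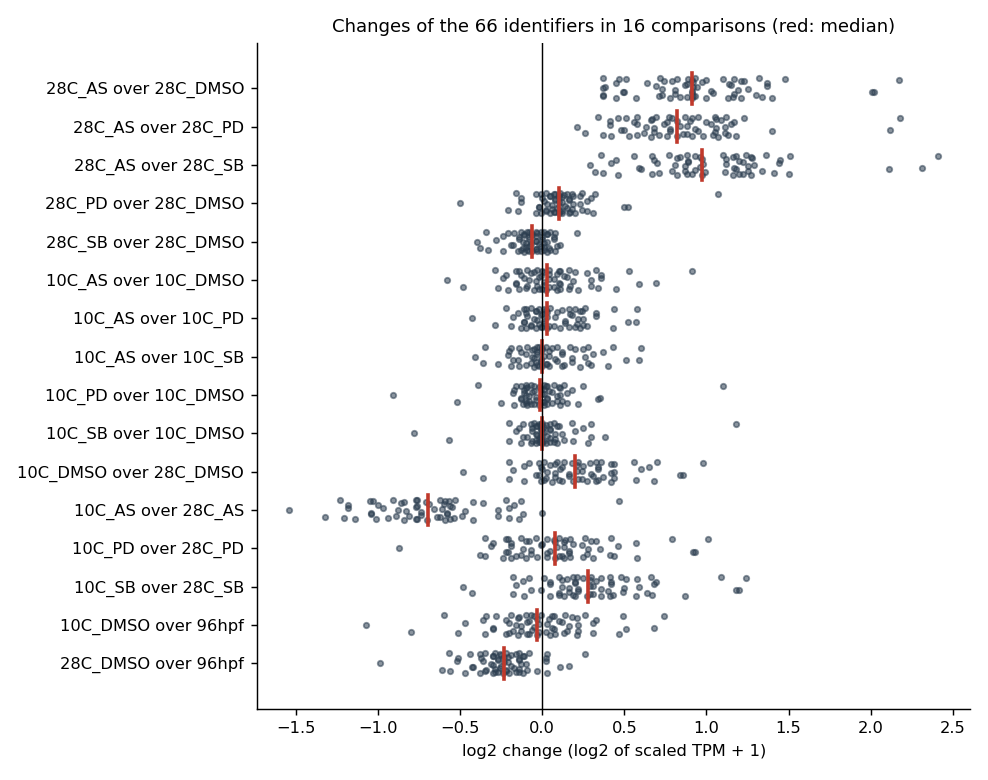
Change of each of the 66 identifiers (points, log2 of scaled TPM + 1, horizontal axis) in 16 comparisons between groups (vertical axis), with red lines for medians. The medians are 0.91, 0.82 and 0.97 where 28C_AS is set against 28C_DMSO, 28C_PD and 28C_SB, -0.70 where 10C_AS is set against 28C_AS, and between -0.24 and 0.28 elsewhere.

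With AS1842856 present at both temperatures, most members were lower in the cold. In 10C_AS relative to 28C_AS, 40 identifiers fell, where 10.2% of all identifiers fell, and 0 rose, where 12.2% of all rose (limma, 59 members at an unadjusted p under 0.05). Without the fold threshold 54 were lower, against 24.6% of all, and 1 was higher (nop56, 0.47), against 25.2% of all. The median was -0.70. This comparison reuses the 28C_AS libraries, whose raised level enters it, so it restates the comparisons above and is not a separate result. The mean summed level in 10C_AS, 2155 scaled TPM, was above those of 10C_DMSO (1921) and 28C_DMSO (1454). The largest decreases were those of nat10 (-1.54), dkc1 (-1.32), rrp1 (-1.23), bop1 (-1.21), utp4 (-1.18) and ddx47 (-1.14). For dkc1 the values were 29.2, 26.6 and 28.0 scaled TPM in 10C_AS, against 73.9, 69.5 and 69.9 in 28C_AS, and for bop1 they were 5.79, 5.71 and 4.64 in 10C_AS, against 14.2, 13.3 and 13.5 in 28C_AS. In both genes the groups did not overlap.

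Under the other inhibitors the cold comparisons called 5 and 10 members. In 10C_PD relative to 28C_PD, 4 identifiers rose, where 10.4% of all rose, namely both of npm1a (1.01 and 0.93), nop56 (0.92) and gar1 (0.79), and ddx47 fell (-0.87), where 7.17% of all fell. By adjusted p alone 16 were higher and 9 lower, against 23.3% and 20.9% of all. In 10C_SB relative to 28C_SB, 10 identifiers rose, where 9.39% of all rose, and 0 fell, where 6.83% of all fell. They were both identifiers of npm1a (1.24 and 1.18) and of gar1 (1.09 and 0.69), nop56 (0.87), gnl3 (0.68), ebna1bp2 (0.67), nop10 (0.66), rrs1 (0.64) and ncl (0.59). Dropping the fold, 33 were higher and 2 lower, against 21.9% and 19.2% of all (limma, 39 members at an unadjusted p under 0.05). Single libraries moved these counts: without 10C_PD replicate 1, 7 rose under PD0325901, and without 28C_SB replicate 3, 1 member fell under SB203580.

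PD0325901 and SB203580 called 0 members against vehicle at either temperature. For 28C_PD against 28C_DMSO, 14 members had an unadjusted p under 0.05 in limma and 3 were higher by adjusted p alone, against 2.64% of all, and 1.49% of all identifiers were called in either direction. The median change was 0.10. For 10C_PD against 10C_DMSO, 5 members had an unadjusted p under 0.05, beside 0.382% of all called, and the median was -0.01. Without 10C_DMSO replicate 2 a single member was called lower in that comparison. For 28C_SB against 28C_DMSO the median was -0.06 with 5 members at an unadjusted p under 0.05, and for 10C_SB against 10C_DMSO it was 0.00 with 8 such members. SB203580 called 0.0207% of all identifiers at 28 °C and 0.0207% at 10 °C, so these 2 comparisons had few calls anywhere.

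Set against the other inhibitors instead of vehicle, 28C_AS gave counts of the same order. In 28C_AS relative to 28C_PD, 49 identifiers rose, where 6.20% of all rose, with a median of 0.82. In 28C_AS relative to 28C_SB, 58 rose, where 7.12% of all rose, with a median of 0.97. The doses differ between the inhibitors, and these comparisons share the 28C_AS libraries with that against vehicle. In the cold, 10C_AS relative to 10C_PD called 0 members (limma, 17 at an unadjusted p under 0.05), where 0.436% of all were called, with 4 higher by adjusted p alone, against 0.477% of all. Leaving out 10C_AS replicate 1 or 2, or 10C_PD replicate 2 or 3, gave 1 member called higher. In 10C_AS relative to 10C_SB, rrs1 (0.60) and nop56 (0.59) rose, where 0.141% of all rose, and 5 were higher by adjusted p alone, against 0.544% of all. Without 10C_SB replicate 1 or 2 the count of called members, which includes the fold, was 0, and without 10C_AS replicate 1 or 3 it was 1.

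The start of the exposure gives another reference. The 96hpf larvae were untreated and not in vehicle, so in comparisons with them the vehicle cannot be told apart from time or cold. In 28C_DMSO relative to 96hpf, 1 identifier fell, where 1.62% of all fell, namely gar1 under ENSDARG00000076526, with 12.2, 15.1 and 16.2 scaled TPM in 28C_DMSO, against 21.5, 22.0 and 24.2 in 96hpf (-0.61, adjusted p 0.00302). By adjusted p alone 23 were lower, against 5.41% of all, and 1 higher, against 4.65% of all. The median change was -0.24, and 59 of the 66 were negative. The count of 1 was 0 without 28C_DMSO replicate 1, 4 without 28C_DMSO replicate 2, and 2 without 28C_DMSO replicate 3, 96hpf replicate 1 or 96hpf replicate 3. For fbl the values were 51.6, 46.3 and 49.2 in 28C_DMSO, against 66.7, 70.4 and 72.7 in 96hpf, so vehicle larvae 12 h older were below the start, whereas the 28C_AS libraries of the same age, at 111 to 121, were above it.

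In 10C_DMSO relative to 96hpf, 2 identifiers rose, where 7.14% of all rose, and 2 fell, where 5.27% of all fell. Those that rose were nop56 (0.74), with 159, 158 and 163 scaled TPM in 10C_DMSO, against 92.5, 103 and 90.9 in 96hpf, and npm1a under ENSDARG00000014329 (0.68). Those that fell were dkc1 (-0.80), with 22.9, 20.7 and 21.7 in 10C_DMSO, against 36.7, 40.3 and 39.1 in 96hpf, and ddx47 (-0.60). By adjusted p alone 9 were higher and 11 lower, against 17.9% and 15.7% of all, and the median was -0.03. The number that fell was 1 without 96hpf replicate 3 or 10C_DMSO replicate 2 and 3 without 10C_DMSO replicate 1, and the number that rose reached 3 without 96hpf replicate 3.

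Related genes outside the 60 symbols were read from lists. Of 72 identifiers of other ribosome assembly factors (67 of 73 symbols measured), 44 rose and 0 fell in 28C_AS, with a median of 0.74 (limma, 67 at an unadjusted p under 0.05). Of all identifiers, 6.39% rose and 5.81% fell there. Among them rsl1d1 had 107 ± 3.73 scaled TPM in 28C_AS, against 51.4 ± 4.16 in 28C_DMSO, at its more abundant identifier (1.04). Its other identifier had 36.3 ± 6.15 against 9.21 ± 4.76 (1.99). In the same groups nolc1 had 30.5 ± 0.626 against 10.7 ± 2.24 (1.44), ppan 20.4 ± 1.49 against 7.39 ± 2.07 (1.38) and pdcd11 24.7 ± 2.92 against 9.60 ± 0.0692 (1.27; SD, n = 3 each). In the cold 1 rose in 10C_AS relative to 10C_DMSO, mak16 (0.68, adjusted p 0.0107), where 0.407% of all rose. In 10C_DMSO relative to 28C_DMSO utp11 (0.85 at 1 identifier, -0.38 at the other) and krr1 (0.61) rose while wdr74 (-0.73) and tsr3 (-0.69) fell. The share of this list that rose there was 2.78%, against 8.73% of all identifiers, and 7.06% of all fell. The difference of the AS1842856 change by temperature was called lower for 40 of the 72, against 5.39% of all identifiers.

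Smaller neighbouring lists rose at lower shares in 28C_AS, where 6.39% of all identifiers rose and 5.81% fell. The other RNA polymerase I genes had 5 of 10 identifiers higher and 0 lower (median 0.48), twistnb (1.07), znrd1 (0.76), polr1e (0.75 and 0.63) and polr1d (0.61), and 0 called in 10C_AS (limma, 1 at an unadjusted p under 0.05). In the cold in vehicle 3 of the 10 fell, znrd1 (-0.79), taf1a (-0.74) and ubtfl (-0.65), where 7.06% of all fell. The snoRNP assembly list holds assembly factors together with snu13a and snu13b. It had 5 of 12 higher and 0 lower (median 0.57), naf1 (1.65), snu13b (1.39), snu13a (0.90), ruvbl2 (0.75) and ruvbl1 (0.61). In the cold in vehicle the same naf1 identifier rose (0.82), where 8.73% of all rose. There znhit3 (-1.24) and znhit6 (-0.93) fell, where 7.06% of all fell. The other naf1 identifier was not called in either comparison (0.79 in 28C_AS and -0.35 in the cold). The RNA exosome, which trims precursor ends, had 5 of 17 higher and 0 lower (median 0.47), exosc9 (0.96), exosc8 (0.90), exosc10 (0.86), mtrex (0.78) and dis3 (0.63). The other identifiers of exosc10 (0.42) and dis3 (0.19) were not called. RNA polymerase III, which makes the small rRNA and transfer RNAs, had 3 of 14 higher and 0 lower (median 0.42), brf1a (0.80), polr3a (0.68) and polr3d (0.67).

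By contrast, the ribosomal proteins and RNA polymerase II showed little. Of 100 identifiers of cytosolic ribosomal protein genes (80 symbols), 2 rose, where 6.39% of all rose, and 0 fell, where 5.81% of all fell, in 28C_AS. The median was 0.11 (limma, 54 at an unadjusted p under 0.05). Those that rose were an identifier of rps13 (0.84) and rpl7l1 (0.71), a paralog of a ribosomal protein gene that is not part of the standard ribosome. In 10C_AS rps13 was again the 1 called higher (0.64), where 0.407% of all rose. In the cold in vehicle 1 identifier was called lower, against 7.06% of all. It was an rpl39 identifier listed at 0 in the 3 libraries of 10C_DMSO and at 107, 144 and 125 in 28C_DMSO. The other rpl39 identifier had 3050 to 3230 in 10C_DMSO, against 3140 to 3340 in 28C_DMSO. Of 6 RNA polymerase II identifiers 0 were called in 28C_AS (limma, 2 at an unadjusted p under 0.05), with a median of 0.12. The most abundant, polr2d, had 58.0 ± 0.44 scaled TPM in 28C_AS, against 62.4 ± 2.29 in 28C_DMSO (SD, n = 3 each).

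**Figure D5:**
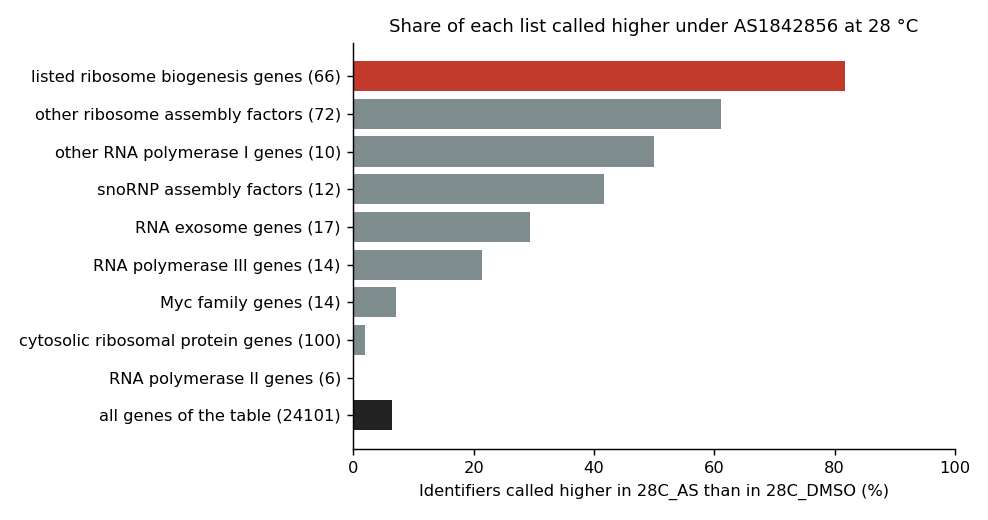
Percent of the identifiers of each list called higher in 28C_AS than in 28C_DMSO (horizontal axis), with the number of identifiers in brackets. The bar of the listed ribosome biogenesis genes reaches 81.8%, that of the other assembly factors 61.1%, that of cytosolic ribosomal proteins 2%, and that of all genes 6.39%.

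The Myc family held changes in both directions. The list joins Myc genes, which activate ribosome biogenesis genes in mammals, with their partners and antagonists, so its median of -0.03 in 28C_AS mixes these. Of its 14 identifiers 1 rose (6.39% of all) and 1 fell (5.81% of all) in 28C_AS. Each of the 14 had an unadjusted p under 0.05 in limma. Transcripts of mych had 34.5 ± 2.62 scaled TPM in 28C_AS, against 14.7 ± 0.717 in 28C_DMSO (1.18), and those of mxd4, an antagonist of Myc, fell (-0.98). Under the fold, mycla (0.45), mycb (0.40), mycn (0.34) and myca (0.13) were higher and myclb (-0.40) lower. Of the others, mxd1 (-0.39), mxd3 (-0.39), mntb (-0.34), mxi1 (-0.26) and mlx (-0.19) were lower, and max (0.28) and mnta (0.21) higher. In the cold in vehicle 5 rose, mych (2.62), mycla (1.79), myca (1.3), mycb (1.26) and myclb (0.77), where 8.73% of all identifiers and 7 of 66 members rose.

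Whole larvae hold many cell types, and some of their markers were called in 28C_AS, where 6.39% of all identifiers rose and 5.81% fell. Of 8 identifiers of proliferating cells, 3 rose, mcm2 (0.86), pcna (0.83) and mcm5 (0.75), and 0 fell, and their summed level was 427 to 467 scaled TPM in 28C_AS, against 284 to 293 in 28C_DMSO. In the cold the same sum was 310 to 339 in 10C_AS, against 311 to 356 in 10C_DMSO. One cdk1 identifier of this list was listed at 0 in 10 libraries, and mki67 (0.48), top2a (0.12), cdk1 (0.41 and 0.65) and ccnb1 (-0.15) were not called. Much of the sum was pcna, with a mean of 252 in 28C_AS, against 142 in 28C_DMSO. The part of these markers in the members' changes was not tested.

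In the same libraries some markers of other tissues fell, where 5.81% of all identifiers fell. Of 6 intestine identifiers 4 fell, both of fabp2 (-0.97 and -1.05), apoa4b.1 (-0.92) and slc15a1b (-0.90), while cdx1b (0.44) and vil1 (0.16) were not called. The list, mostly fabp2 and apoa4b.1 by level, had sums of 1540 to 1780 scaled TPM in 28C_AS, against 2770 to 3650 in 28C_DMSO, while in the cold the sums were 3080 to 3470 in 10C_AS, against 3030 to 4070 in 10C_DMSO. Of 7 leukocyte identifiers 2 fell, both of the single gene lyz (-1.21 and -1.16), which makes up most of the list's level, while lcp1 (-0.55), coro1a (-0.19), mpx (-0.06) and mpeg1.1 (0.20 and -0.26) were not called. The list had sums of 119 to 150 in 28C_AS, against 265 to 291 in 28C_DMSO, and 219 to 247 in 10C_AS, against 236 to 305 in 10C_DMSO. An mpeg1.1 identifier of that list was listed at 0 in 7 libraries. Of 7 exocrine pancreas identifiers 1 fell, and the list had sums of 8740 to 9030 in 28C_AS, against 11200 to 11900 in 28C_DMSO.

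Elsewhere 1 of 7 skeletal muscle, 1 of 8 epidermis, 2 of 5 lens and 1 of 4 endothelium identifiers fell in 28C_AS, beside 5.81% of all. The muscle call was the less abundant identifier of mylpfa (-2.02, and -2.06 in 10C_AS against 10C_DMSO), while its other identifier was not called (-0.11). The epidermis call was the less abundant identifier of krt5 (-0.9), whose other identifier was not called (-0.46). Reads could be split within these pairs too. In liver, neurons, erythroid cells and photoreceptors 0 of 5 each were called (limma, with 4, 2, 2 and 2 at an unadjusted p under 0.05). Summed levels were lower in 28C_AS than in 28C_DMSO, without overlap, for liver, skeletal muscle, epidermis, erythroid cells, lens and endothelium. The liver sums were 4090 to 4450 scaled TPM in 28C_AS, against 5270 to 5540 in 28C_DMSO. Those of skeletal muscle were 19100 to 21600, against 23100 to 25600, and those of epidermis 5840 to 6790, against 7190 to 8200. Sums of neurons and photoreceptors overlapped. In the cold in vehicle all 7 pancreas identifiers fell, where 7.06% of all fell, with sums of 5410 to 6710 in 10C_DMSO, against 11200 to 11900 in 28C_DMSO. The part of these tissues in the members' changes was not tested.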

How the data were processed

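Transcript abundance was measured by RNA-seq of whole zebrafish larvae in 27 libraries, 9 groups of 3, grouped by their labels. Per the study's methods, RNA was purified with TRIzol and a column kit, and the authors quantified reads with Salmon 0.13.1 on the Ensembl zebrafish cDNA set with corrections for GC, sequence and position bias, summarized them per gene with tximport, and deposited TPM values of each library, with no replicates pooled. A gene was listed when some group had a TPM of 1 or more in each of its replicates, which 0 identifiers failed when checked, so genes under this level were not analysed. The study's read numbers per library were not used here, and TPM keep no counts per gene, so no count test was run.

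The deposited TPM were divided by median-of-ratios size factors, log2 transformed with a pseudocount of 1, and fitted in R 4.3.3 with limma 3.58.1 (trended empirical Bayes, one mean per group, 18 residual degrees of freedom, two-sided). On this scale the fold of a low gene is understated. In all, 17 comparisons were made, and the script was tested on simulated data. The 60 members and the lists of related genes and tissue markers were chosen with earlier results of these data known, and 1 list is not reported here. Values of every library are given for the 12 called members with the largest changes in each of the AS1842856 comparisons and the cold response, for the leading member of each role, and for the 5 largest differences by temperature, and other members are given by change. Alternatives were other pseudocounts, scalings and filters, library weights, fits of the compared groups alone, adjusted p alone, a replicate block, leaving out each library, and, chosen after seeing the data, summed identifiers. No sequences are shown, since no sequence table was used here.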

Additional observations from a re-analysis of the deposited data

Results flagged for a closer look

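The change under AS1842856 at 10 °C minus the change at 28 °C was tested for each member with the limma interaction, and 48 of 66 identifiers passed the adjusted p and the fold. All 48 values were negative, in log2 units of scaled TPM + 1, and are given in brackets, with both identifiers where a symbol has 2 that passed. The cause was not tested.

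RNA polymerase I gave polr1a (-1.04), polr1c (-0.89) and polr1b (-0.66 and -0.65). The multifunctional nucleolar genes gave npm1a (-1.72 and -1.48), mybbp1a (-1.39) and ncl (-1.10). Among snoRNP proteins the values were fbl (-0.99) and nop58 (-0.84) for box C/D and dkc1 (-0.96), gar1 (-0.87), nhp2 (-0.82) and nop10 (-0.62) for box H/ACA.

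In the small subunit processome, UTP-A gave heatr1 (-1.17), utp4 (-0.98), utp15 (-0.85) and wdr43 (-0.83), UTP-B gave utp18 (-0.99), and the MPP10 module gave imp4 (-1.13), mphosph10 (-0.85) and imp3 (-0.77). The remaining processome genes were nat10 (-1.60), rrp9 (-1.36 and -1.11), noc4l (-1.19), utp20 (-0.96), bms1 (-0.84), ddx10 (-0.81), ddx47 (-0.66) and emg1 (-0.60). Late small subunit factors gave rrp12 (-1.16), ltv1 (-0.92) and tsr1 (-0.88).

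For the large subunit, PeBoW gave bop1 (-1.10) and wdr12 (-0.89), and the other factors gave ftsj3 (-1.41), rrp1 (-1.41), nop2 (-1.07), gnl3 (-1.06), noc2l (-0.99), ddx18 (-0.93), gnl2 (-0.92), nop16 (-0.91), nip7 (-0.87), rrs1 (-0.72), ddx27 (-0.71) and noc3l (-0.64). The calls nearest to the adjusted p threshold were those of utp18 (0.0466) and ddx47 (0.0393), both of which have a wide spread in 10C_DMSO, with 27.2, 11.4 and 17.2 scaled TPM for utp18.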

How the results depend on the processing

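Single members were followed only where they had the largest changes of a main comparison or led a role, not for every call. None of these changed sign under an alternative. Of the alternative values 470 of the counts stayed within 1.5 times, against 60 that moved. The 470 include counts of 0 that stayed at 0, so they do not measure how stable the other counts were. For the single members followed, 453 values kept their call, against 25 that lost it. Medians of the members stayed within the replicate spread in 207 cases and moved past it in 37. The counts in the rest of this paragraph are only those that moved past 1.5 times. Counts that stayed within it, such as 64 higher by adjusted p alone in 28C_AS against 28C_DMSO, are left out. By adjusted p alone the counts were 8 higher in 10C_AS against 10C_DMSO, 23 higher and 3 lower in 10C_DMSO against 28C_DMSO, 3 higher in 28C_PD against 28C_DMSO, 1 higher and 23 lower in 28C_DMSO against 96hpf, 9 higher and 11 lower in 10C_DMSO against 96hpf, 1 higher in 10C_AS against 28C_AS, 16 higher and 9 lower in 10C_PD against 28C_PD, 33 higher and 2 lower in 10C_SB against 28C_SB, 4 higher in 10C_AS against 10C_PD and 5 higher in 10C_AS against 10C_SB. With TPM as deposited they were 1 higher in 10C_AS against 10C_DMSO, 1 higher in 28C_PD against 28C_DMSO, 5 lower in 28C_DMSO against 96hpf, 0 higher and 4 lower in 10C_DMSO against 96hpf, and 0 higher in 10C_AS against 10C_SB. With quantile normalization they were 0 higher in 10C_AS against 10C_DMSO, 3 higher and 1 lower in 10C_DMSO against 28C_DMSO, 0 higher in 10C_DMSO against 96hpf, 6 higher in 10C_SB against 28C_SB and 0 higher in 10C_AS against 10C_SB. Library weights gave 0 higher in 10C_AS against 10C_DMSO, 1 lower in 10C_DMSO against 28C_DMSO and 0 lower in 28C_DMSO against 96hpf. Fits of the compared groups alone gave 1 higher in 10C_AS against 10C_DMSO and 1 lower in 10C_DMSO against 96hpf. Pseudocounts of 0.1 and 0.5 gave 3 lower each in 28C_DMSO against 96hpf and 1 higher each in 10C_AS against 10C_PD, and summed identifiers gave 1 higher in 10C_AS against 10C_DMSO.

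Leaving out each library in turn gave 53 to 55 higher for 28C_AS against 28C_DMSO, 0 to 2 for 10C_AS against 10C_DMSO, 5 to 9 higher and 0 to 1 lower for 10C_DMSO against 28C_DMSO, 44 to 52 lower for the difference by temperature, 0 to 4 lower for 28C_DMSO against 96hpf, 2 to 3 higher and 1 to 3 lower for 10C_DMSO against 96hpf, 37 to 43 lower for 10C_AS against 28C_AS, 4 to 7 higher for 10C_PD against 28C_PD, 7 to 12 higher and 0 to 1 lower for 10C_SB against 28C_SB, 0 to 1 lower for 10C_PD against 10C_DMSO, 0 to 1 higher for 10C_AS against 10C_PD and 0 to 2 higher for 10C_AS against 10C_SB. The causes were not tested. The scaling moved the median of all genes by more than 0.1 in 28C_PD against 28C_DMSO (0.123 with TPM as deposited), 10C_DMSO against 96hpf (-0.14), 10C_PD against 28C_PD (-0.142) and 28C_AS against 28C_PD (-0.13), and relative to it the members' medians were 0.11, -0.04, 0.07 and 0.82. The share of higher among all called identifiers was then 66.1%, 36.1%, 37.7% and 31.4%, against 34.5% and 57.5% for the first pair and 55.6% for the last with size factors, where 2498 rose and 1728 fell in 10C_PD against 28C_PD, and in 28C_DMSO against 96hpf it was 22% against 40.9%, as in 10C_SB against 10C_DMSO, with few calls, 100% against 80%.

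The deviations of same-numbered libraries had correlations of -0.0435 to 0.00692 for 28C_AS with 28C_DMSO, 0.0239 to 0.0428 for 10C_AS with 10C_DMSO, and 0.227, 0.101 and 0.0531, all positive, for 10C_DMSO with 28C_DMSO. In none of the 16 comparisons between groups were all 3 correlations above 0.1, so the libraries were not taken as paired. A replicate block gave 54, 2, 7 and 48 members called in the 4 main comparisons, the counts without it. TPM carry no depth, so low genes such as polr1b, utp6 and nol6 are the least certain.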
